A study of Mus musculus with 12 samples.

Results

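The genes examined were Sln, Myl4, Myl7, Gja5 and Bmp10, which adult hearts transcribe mainly in the atria and which were read here in myocytes labelled as ventricular. They were found by gene symbol in the deposited array table, and all 5 had a probe set among the 24704 genes measured. They were chosen after the Iso-treated wild-type values of Sln and Myl7 had been seen, so every comparison of those arrays is given as a description with no test. The 2 tested comparisons still use a spread pooled with those arrays. The cells were adult mouse ventricular myocytes, released enzymatically from hearts on a Langendorff perfusion system and then cultured for 24 h, either untreated or in 100 nM Iso. The mice were either double knockouts deficient for CaMKIIδ and CaMKIIγ (DKO) or the corresponding wild type (WT), all adult, and the labels name no promoter, Cre line or strain for the deletion. CaMKII is a calcium- and calmodulin-dependent kinase, and Iso is read here as isoprenaline, an agonist of beta-adrenergic receptors. The study asked whether an Iso-induced phosphorylation of histone H3 is accompanied by changes in gene expression. Each of 6 mice gave 1 untreated and 1 Iso-treated array, which makes 4 groups of 3 arrays. Arrays 1, 2 and 3 of both WT groups come from mice 4, 5 and 6, and arrays 1, 2 and 3 of both DKO groups from mice 1, 2 and 3. Values are log2 array signals, the median gene of each array lay at 3.31 or 3.32, and 3 arrays per group limit the precision of every value.

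Atrial and ventricular myocytes build their contractile and calcium-handling machinery partly from different genes. Sarcolipin (Sln) is a small membrane protein that inhibits the calcium pump of the sarcoplasmic reticulum, as phospholamban (Pln) does in the ventricle. Myl4 encodes the atrial essential and Myl7 the atrial regulatory light chain of myosin, where the ventricle uses Myl3 and Myl2. Gja5 encodes connexin 40, the gap-junction channel of atrial muscle, of the fast conduction system and of arterial endothelium. Bmp10 encodes a bone morphogenetic protein made by atrial myocytes, mainly of the right atrium, that circulates and acts on endothelium. Ventricular myocytes are usually prepared from hearts whose atria have been cut away.

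The bases upstream of the light chain genes are shown because Myl7 and Myl4 encode partner chains of the same atrial myosin and yet varied by very different amounts between arrays. They are the 250 bases before each gene's start, 5′ to 3′ on the gene's own strand, from RefSeq on build GRCm38.p6, which held 4 of the 5 genes. The Myl7 stretch is chr11:5898783-5899032 on the minus strand, and capitals mark, in this order, an MCAT motif, a CArG box and a GATA motif.
Myl7: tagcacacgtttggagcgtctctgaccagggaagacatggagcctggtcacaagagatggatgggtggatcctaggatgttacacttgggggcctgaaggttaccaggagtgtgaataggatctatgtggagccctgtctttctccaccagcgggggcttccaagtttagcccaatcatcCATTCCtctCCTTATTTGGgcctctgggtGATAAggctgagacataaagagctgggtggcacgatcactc
The Myl4 stretch is chr11:104550413-104550662 on the plus strand, and it has no capitals because none of the 7 motifs searched was in it.
Myl4: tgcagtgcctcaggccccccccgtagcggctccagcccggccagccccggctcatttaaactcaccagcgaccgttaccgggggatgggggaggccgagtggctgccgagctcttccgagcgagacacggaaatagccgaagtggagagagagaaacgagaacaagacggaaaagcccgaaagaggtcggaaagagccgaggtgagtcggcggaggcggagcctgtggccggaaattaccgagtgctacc
Both strands were searched for 7 short motifs. Serum response factor binds the CArG box, which 1.47% of all 32851 promoter windows of this length held. GATA factors bind the GATA motif, searched as GATAA and held by 22.6% of windows. TEAD factors bind the MCAT motif, searched as CATTCC and held by 12.6%. The MEF2 motif was searched as CTANNNNTAG, with a share of 3.20%, the T-box motif as AGGTGT, with a share of 11.8%, the E-box as CANNTG, with 66.2%, and the TATA box as TATAAA, with 12.4%. Myl7 held the MCAT motif at -70 to -65, the CArG box at -61 to -52 and the GATA motif at -41 to -37 from its start. It also held an E-box at -168 to -163, left in lower case. The Bmp10 window held the GATA motif at -218 to -214 and at -32 to -28, and the Gja5 window held none of the 7. These matches describe letters in a window and say nothing of a factor bound there.

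The ventricular label was read beside some of its markers, which do not settle it. The ventricular light chains Myl2 and Myl3 read 13.47 to 13.67 and 13.03 to 13.25 over the 12 arrays. Of the other ventricular genes listed, Irx3, Kcnip2 and Kcnj2 read 4.64 to 6.56. Irx4, Irx5, Hand1, Hey2 and Myh7 read 3.15 to 4.60, nearer the median gene. The mean of 10 genes that define cardiac myocytes, as a class and not the ventricle, ran from 12.01 to 12.46. Untreated DKO array 3 stood apart from the rest. Its residuals around the group means had a root mean square of 0.374 over 13737 genes, against 0.141 to 0.277 on the other 11 arrays, and values without this array are given where a result turns on it.

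Sln differed between arrays more than almost any other gene. Arrays 1, 2 and 3 of WT gave 5.04, 6.29 and 3.96 untreated and 8.33, 8.11 and 3.27 after Iso. Those of DKO gave 5.83, 4.59 and 3.37 untreated and 4.29, 4.02 and 3.56 after Iso. Iso-treated WT arrays 1 and 2 were thus the highest of the 12 and array 3 of the same group was the lowest, close to the array median. From lowest to highest array the range was 5.06 log2 units, and it lay wholly within 1 group. The lowest value is below its array's median, so the range rests in part on a weak signal and its size is uncertain. Iso-treated WT had the highest group mean, 6.57 ± 2.86, then untreated WT with 5.10 ± 1.17, untreated DKO with 4.60 ± 1.23 and Iso-treated DKO with 3.96 ± 0.366 (SD, n = 3 each). Every pair of neighbours in this order overlapped array by array. In RNA from many cells, fewer cells that carry a transcript and less of it per cell cannot be told apart.

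Myl7, the atrial regulatory light chain, followed a like pattern. The WT arrays gave 5.74, 6.54 and 4.29 untreated and 8.16, 7.93 and 4.82 after Iso. The DKO arrays gave 5.39, 5.57 and 4.89 untreated and 5.68, 5.18 and 5.74 after Iso. As for Sln, Iso-treated WT arrays 1 and 2 stood above the other 10 arrays, while array 3 of that group was below all Iso-treated DKO arrays. The range was 3.87, or 14.6-fold. Group means ran from Iso-treated WT at 6.97 ± 1.87 through Iso-treated DKO at 5.53 ± 0.309 and untreated WT at 5.52 ± 1.14 to untreated DKO at 5.28 ± 0.349 (SD, n = 3 each), and neighbouring groups in this order overlapped.

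Myl4, the essential light chain that sits beside Myl7 in atrial myosin, varied far less. The WT arrays gave 5.11, 5.29 and 4.71 untreated and 5.71, 5.83 and 5.41 after Iso, and the DKO arrays 5.19, 5.22 and 5.98 untreated and 5.05, 5.09 and 5.12 after Iso. The highest of the 12 was untreated DKO array 3, the array that stood apart over all genes. All 3 Iso-treated WT arrays lay above all 3 untreated WT arrays, and the Iso-treated DKO arrays lay close together below both the untreated DKO and the Iso-treated WT arrays. The range over 12 arrays was 1.26, or 2.40-fold, and the group means were, from high to low, Iso-treated WT at 5.65 ± 0.219, untreated DKO at 5.46 ± 0.449, Iso-treated DKO at 5.09 ± 0.0353 and untreated WT at 5.04 ± 0.295 (SD, n = 3 each).

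Gja5 and Bmp10 lay near the median gene on every array. Gja5, connexin 40, gave 3.15, 3.35 and 3.04 on untreated and 3.08, 3.37 and 3.12 on treated WT arrays, and 3.42, 3.29 and 3.13 on untreated and 3.35, 3.73 and 3.37 on treated DKO arrays. It was above the array median on 6 arrays, its range was 0.688, and no pair of groups that differ only in Iso or only in genotype was free of overlap. Bmp10 gave 3.08, 3.08 and 3.01 on untreated and 3.38, 3.22 and 3.13 on treated WT arrays, and 2.90, 2.77 and 3.35 on untreated and 3.03, 2.95 and 2.87 on treated DKO arrays. It was above the array median on only 2 arrays, so it was set aside as dim and entered no test. Its Iso-treated WT arrays lay above both the untreated WT and the Iso-treated DKO arrays, by small margins on a dim probe set. High Sln and Myl7 on Iso-treated WT arrays 1 and 2 therefore came with values of Gja5 between 3.08 and 3.37 and of Bmp10 between 3.22 and 3.38 on those arrays.

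**Figure D1:**
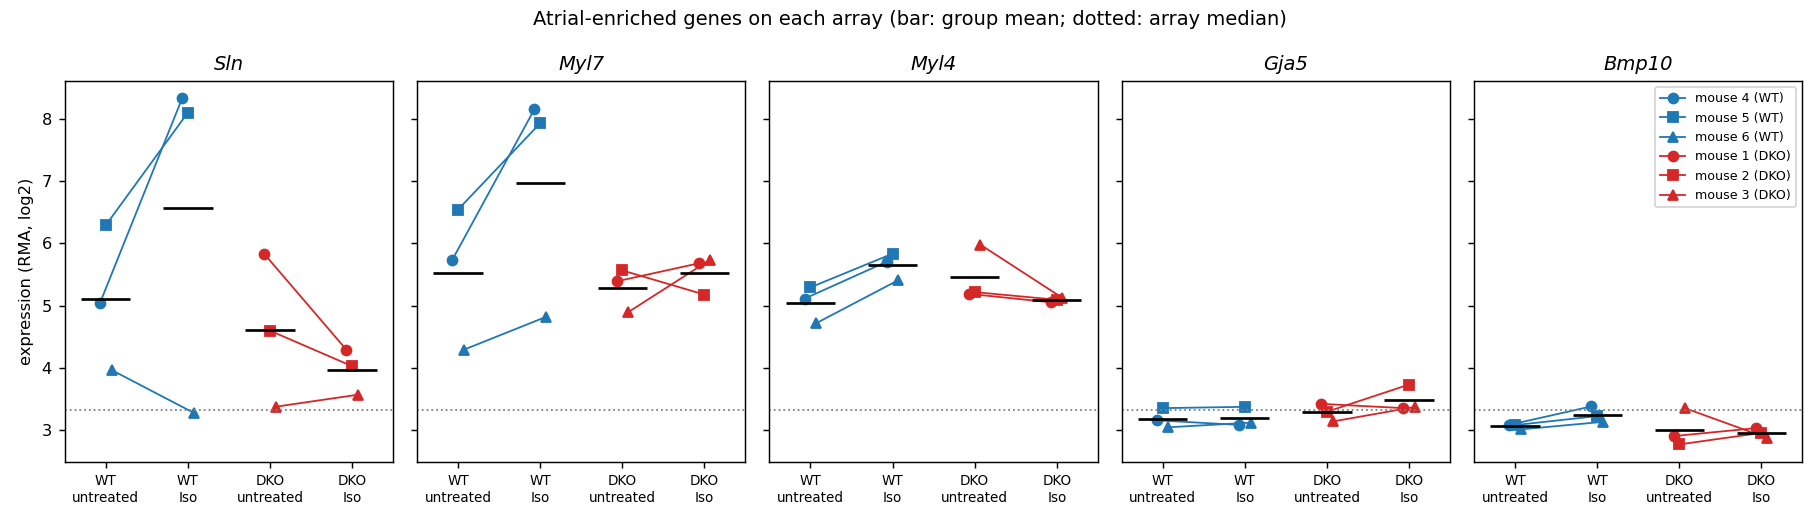
Log2 array signal (vertical axis) of the 5 genes in the 4 groups of 3 arrays, each point 1 array, with lines joining the untreated and the Iso-treated array of 1 mouse and a dotted line at the array median. Sln and Myl7 fan out within the WT groups, with Iso-treated WT arrays 1 and 2 at 7.93 to 8.33 and array 3 at 3.27 for Sln and 4.82 for Myl7, while Myl4 stays between 4.71 and 5.98 and Gja5 and Bmp10 lie near the dotted line.

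The Iso-treated WT arrays that led to the choice of Sln and Myl7 enter the residual SD, the spread of arrays around their own group mean. High ranks of these 2 genes by this measure thus follow in part from the choice and do not show how unusual the spread is. For Sln it was 1.67, rank 1 of the 13737 genes bright enough to be tested, and for Myl7 it was 1.12, rank 3, where the median gene had 0.207. Between them at rank 2 lay the predicted gene Gm3417. Myl4 had 0.291 (rank 3100) and Gja5 0.17 (rank 9161). The spread of Sln and Myl7 in Iso-treated WT had led to their choice, so the other groups are given as well, also without a test. The untreated WT arrays come from the same mice as the Iso-treated ones, and only the DKO arrays come from other animals. In untreated WT the range of Sln was 2.33, rank 2, and that of Myl7 2.26, rank 3, against a median of 0.258. In untreated DKO Sln had 2.46 (rank 34) and Myl7 0.674 (rank 4210) against a median of 0.469. In Iso-treated DKO Sln had 0.724 (rank 510) and Myl7 0.562 (rank 1204) against a median of 0.255. Both genes therefore ranked among the most variable on the untreated WT arrays, which share their mice with the Iso-treated ones. In the DKO groups, from other mice, Sln ranked 34 and 510, while Myl7 ranked 4210 and 1204.

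**Figure D2:**
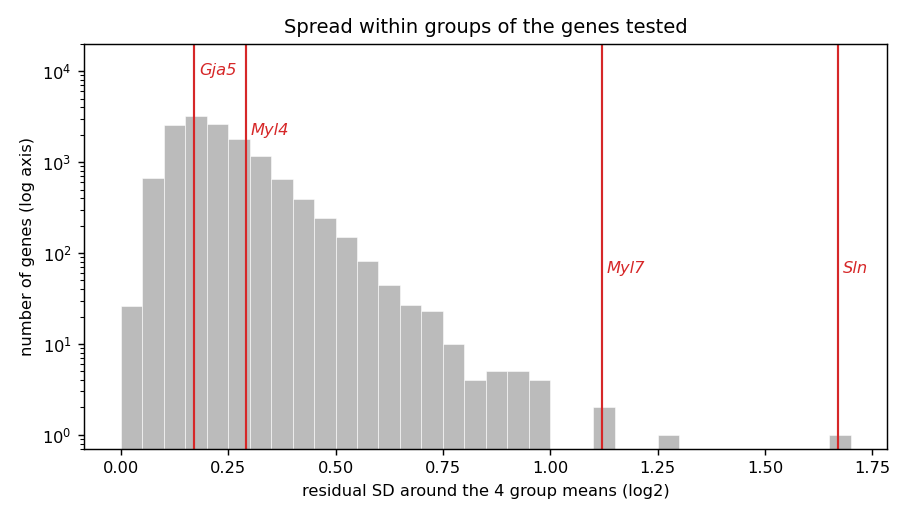
Number of genes (vertical axis, log scale) by residual SD within groups in log2 units (horizontal axis) for the 13737 genes tested, with lines at the 4 tested atrial genes. Sln at 1.67 and Myl7 at 1.12 lie at the far right end of the distribution, Myl4 at 0.291 and Gja5 at 0.17 in its bulk. The measure includes the Iso-treated WT arrays whose values led to the choice of Sln and Myl7.

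The differences between arrays went partly with the mouse. In WT, mouse 6 had the lowest Sln, Myl7 and Myl4 of the 3 animals both without and with Iso, so that its mean over both arrays was 3.62 for Sln, against 6.69 in mouse 4 and 7.2 in mouse 5. For Myl7 the means were 6.95, 7.24 and 4.55 in mice 4, 5 and 6. In the DKO mice 1, 2 and 3 the Sln means were 5.06, 4.31 and 3.47, in the same order with and without Iso, whereas the Myl7 means of 5.53, 5.37 and 5.31 were close together. Within a mouse, Iso-treated minus untreated Sln was 3.29, 1.81 and -0.688 in WT mice 4, 5 and 6 and -1.54, -0.57 and 0.193 in DKO mice 1, 2 and 3. The sign differed between mice within both genotypes, which was not so for Myl4. For Myl7 it was 2.42, 1.39 and 0.528 in the WT mice and 0.29, -0.39 and 0.846 in the DKO mice. For Myl4 it was 0.595, 0.542 and 0.693 in the WT mice and -0.136, -0.123 and -0.857 in the DKO mice, above 0 in every WT mouse and below 0 in every DKO mouse. Such opposite signs were found in 4.14% of all 24704 genes.

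Sln and Myl7 ranked the arrays much alike. Of the 66 pairs of arrays, 54 (81.8%) were in the same order for both genes, among them 14 of the 15 pairs of WT arrays but only 8 of the 15 pairs of DKO arrays. The order of Myl4 matched that of Sln in 40 of 66 pairs (60.6%) and that of Myl7 in 42 of 66 (63.6%). Within WT the matches with Myl4 were 11 and 12 of 15 pairs, and within DKO 6 and 5 of 15. Myl4 and Bmp10 were in the same order in 13 of 15 WT pairs and 6 of 15 DKO pairs. These shares are descriptions, since arrays of 1 mouse share an animal and the genes were picked for their values on some of these arrays.

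With Iso in WT, described and not tested, the log2 difference was 1.47 for Sln (limma SE 1.09), 1.45 for Myl7 (SE 0.73), 0.61 for Myl4 (SE 0.21) and 0.01 for Gja5 (SE 0.15). The Sln and Myl7 differences turned on single arrays. Without Iso-treated WT array 3 they were 3.12 and 2.52, without array 1 of that group 0.59 and 0.85, and without array 2 of that group 0.71 and 0.97. Without untreated WT array 3 they were 0.90 and 0.83. The Myl4 difference stayed between 0.45 and 0.74 whichever array was left out. The groups were free of overlap for 2 of the 5 genes, Myl4 and Bmp10, both higher with Iso, and for 4, with Sln and Myl7 added, without Iso-treated WT array 3. Over all 24704 genes 13.7% were free of overlap in this comparison and 6.53% were higher, and 0.0218% of the genes tested passed limma's adjusted p of 0.05. The choice of the genes used these arrays, so nothing is read from the count.

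The groups compared for Iso in DKO hold no array that led to the choice of the genes, though the pooled spread does. Here 0 of the 4 members tested passed at a limma adjusted p of 0.05, where 0.0510% of all genes tested passed. At an unadjusted p under 0.05 there were 0 of 4, against 18.4% of all genes, and Bmp10 was not tested. The difference was -0.64 for Sln (SE 1.09, limma adjusted p = 0.802) and 0.25 for Myl7 (SE 0.73, adjusted p = 0.894). It was -0.37 for Myl4 (SE 0.21, adjusted p = 0.364) and 0.20 for Gja5 (SE 0.15, adjusted p = 0.491). The Sln and Myl4 values moved with single arrays. Sln was at -0.02 without untreated DKO array 1, at -1.25 without untreated DKO array 3 and at -1.55 with arrays weighted by their noise, and Myl4 was at -0.11 without untreated DKO array 3. Myl4 was the 1 member of 5 with no overlap between these groups, lower with Iso, where 17.0% of all genes had none and 8.71% were lower without overlap. The SEs rest on a spread pooled over all 12 arrays. Those of Sln and Myl7 thus include the wide Iso-treated WT spread that led to their choice, so the missing calls for these genes say little. Within the DKO groups the SD of Myl7 was 0.349 untreated and 0.309 with Iso. With the mouse as a fixed term the SE was 0.60 for Sln (limma adjusted p = 0.62) and 0.33 for Myl7 (adjusted p = 0.742).

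Genotype without Iso also left the 4 tested members without a call. The SEs are the same pooled ones, so the missing calls for Sln and Myl7 again say little. The DKO minus WT difference was -0.50 for Sln (SE 1.09, limma adjusted p = 0.875), -0.24 for Myl7 (SE 0.73, adjusted p = 0.915), 0.42 for Myl4 (SE 0.21, adjusted p = 0.399) and 0.10 for Gja5 (SE 0.15, adjusted p = 0.805). At an adjusted p of 0.05, 0.204% of all genes passed. Again 0 of 4 members had an unadjusted p under 0.05, against 13.8% of all genes. No member of the 5 was free of overlap, against 14.9% of all genes. The sign of Sln was not stable. It turned to 0.10 without untreated WT array 2, to 0.11 without untreated DKO array 3 and to 0.135 with arrays weighted by their noise. Myl7 turned to 0.27 without untreated WT array 2. Myl4 was at 0.16 without untreated DKO array 3, its highest array.

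With Iso on both genotypes, again described and not tested, the DKO minus WT difference was -2.61 for Sln (SE 1.09), -1.44 for Myl7 (SE 0.73), -0.56 for Myl4 (SE 0.21) and 0.29 for Gja5 (SE 0.15). Without Iso-treated WT array 3 it was -4.26 for Sln and -2.52 for Myl7, and without array 1 of that group -1.73 and -0.85. Myl4 and Bmp10 were free of overlap, both lower in DKO, where 14.6% of all genes were free of overlap, 7.28% were lower and 0.306% passed limma's adjusted p. Without Iso-treated WT array 3 this held for 4 of the 5 genes, with Sln and Myl7 added. The difference of the Iso effects, DKO minus WT, was -2.11 for Sln (SE 1.54), -1.20 for Myl7 (SE 1.04), -0.98 for Myl4 (SE 0.30) and 0.20 for Gja5 (SE 0.21). It was -1.23 for Sln without Iso-treated WT array 1 and -3.76 without array 3 of that group, and for Myl4 it was -0.72 without untreated DKO array 3. By mouse, Myl4 alone of the 5 was free of overlap here, lower in DKO, where 14.7% of all genes were free of it, 7.07% were lower and 0.0146% passed. The count was 3 without untreated or Iso-treated WT array 3, and 2 without DKO array 1 or 3 of either treatment. These comparisons share arrays with one another and with the Iso effects within each genotype, so their values are not independent.

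The further genes of the atria covered narrower ranges than Sln and Myl7. Of 17 further atrial-enriched genes measured, 16 were bright enough to test. The mean of these 16 lay between 5.86 and 6.02 on the Iso-treated WT arrays and between 5.82 and 5.93 on the untreated ones. It lay between 5.57 and 5.88 on untreated and between 5.64 and 5.65 on Iso-treated DKO arrays. Within Iso-treated WT the median range of these genes was 0.359, against 0.319 for all genes, and the largest was 0.901, for Mybphl, a myosin-binding protein of the atria and conduction system. Array 3, the low array for Sln, was the lowest of its group in 8 of these 16, where over all genes it was in 33.7%. Mybphl itself gave 3.33, 3.26 and 3.34 on untreated and 3.69, 3.94 and 3.04 on treated WT arrays, and 2.78, 2.83 and 3.00 on untreated and 3.35, 3.31 and 2.94 on treated DKO arrays. It too was lower on array 3 than on arrays 1 and 2 of Iso-treated WT, it was above the array median on only 5 arrays, and it did not pass in any comparison. Its order matched that of Sln in 41 and that of Myl7 in 41 of 66 array pairs. In untreated WT array 3 was the lowest for 4 of 16, against 37.0% of all genes, while it was the lowest for all 5 members. Over 12 arrays the median gene had a range of 0.772. Below it lay the transcription factors of atrial identity Tbx5 (0.752), Nr2f1 (0.564) and Nr2f2 (0.485), the atrial kinase Sbk2 (0.461) and the channel gene Kcnj3 (0.535). Cacna2d2 (0.431), Pam (0.609) and Clu (0.644) lay below it as well. Above it lay Kcna5 (0.933), Kcnj5 (1.01), Dkk3 (1.06), Mybphl (1.16), Kcnk3 (1.28), Stard10 (1.30), Angpt1 (1.43) and Nppa (2.37). Nr2f1 read 2.90 to 3.47, Nr2f2 3.13 to 3.62 and Sbk2 3.39 to 3.85, close to the median gene. Nr2f1 was above the array median on 6 arrays and Nr2f2 on 8. Their narrow ranges, and those of Sbk2 and of Cacna2d2, at 3.2 to 3.6, therefore say little. Pam read 9.28 to 9.89 and Clu 10.93 to 11.58, far above the median gene.

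Nppa, the atrial natriuretic peptide that stressed ventricles also make, was the single companion called in the main fit. It gave 13.02, 12.82 and 12.32 on untreated and 12.03, 12.39 and 11.71 on treated WT arrays, and 10.84, 11.11 and 11.39 on untreated and 10.92, 10.73 and 10.65 on treated DKO arrays. The highest DKO array, at 11.39, was below the lowest WT array, at 11.71. It fell in DKO by 1.61 without Iso (SE 0.21, limma adjusted p = 0.00733) and by 1.28 with Iso (SE 0.21, adjusted p = 0.0262). The call without Iso was lost without untreated WT array 1 (adjusted p = 0.0555) or 2 (0.0505), and when only the 6 arrays compared were fitted (0.133). The call with Iso was lost without Iso-treated WT array 1 (0.108) or 2 (0.124), and without any 1 of the Iso-treated DKO arrays (0.102 to 0.155). The order of Nppa matched that of Sln in 41 and that of Myl7 in 35 of 66 array pairs. Angpt1 was not called but was likewise lower on every DKO array (3.51 to 3.99) than on every WT array (4.19 to 4.94). Its DKO minus WT difference was -0.74 without Iso (limma adjusted p = 0.159) and -0.78 with Iso (adjusted p = 0.166). Over the 16 companions the median difference was -0.14 without Iso and -0.17 with Iso, beside -0.01 and 0.00 for all genes, with 11 and 14 of 16 below 0. An unadjusted p under 0.05 was found in 4 and 3 of 16, against 13.8% and 7.91% of all genes. With Iso in WT, 0 of 16 passed and 2 had an unadjusted p under 0.05 (6.70% of all genes), with a median of 0.06 beside -0.01. With Iso in DKO, 0 passed and 2 had such a p (18.4% of all genes), with a median of 0.04 beside 0.01. For the difference of the Iso effects both counts were 0 (10.1% of all genes at such a p), with a median of -0.04 beside 0.01.

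**Figure D3:**
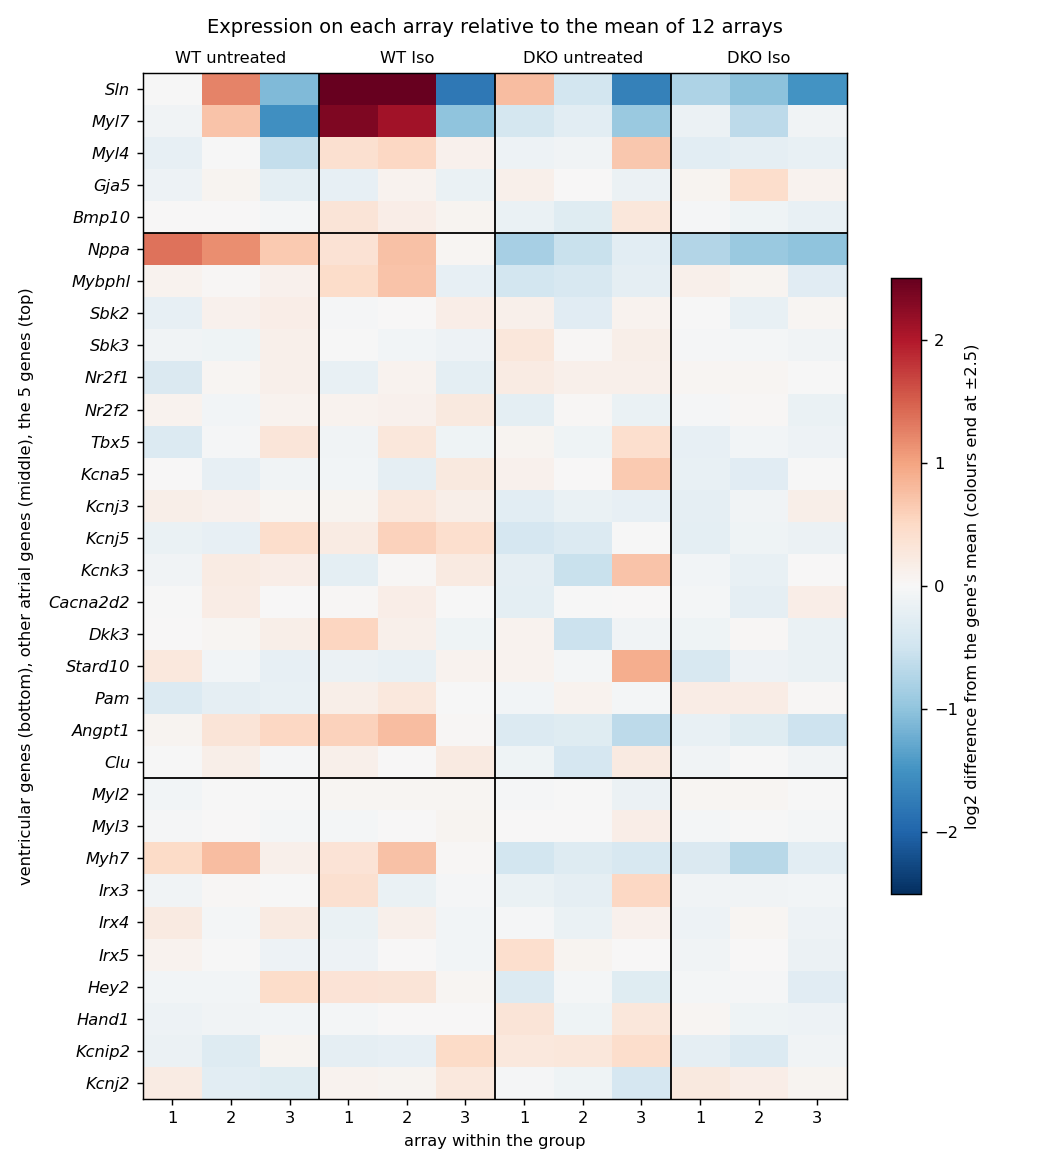
Log2 signal minus the gene's own mean over the 12 arrays (colour, log2 units) for the 5 members, the 17 further atrial genes on the array and 10 ventricular genes (rows) on 12 arrays (columns, by group). Sln and Myl7 show the strongest colours, on Iso-treated WT arrays 1 and 2, while the other atrial genes cover 0.431 to 2.37 from lowest to highest array, the widest being Nppa.

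Ventricular genes gave the counterpart. All 10 listed were bright enough to test and 0 passed in each of the 5 comparisons. At an unadjusted p under 0.05 there were 0 with Iso in WT, 2 with Iso in DKO and 1 for the difference of the Iso effects. There were 2 in DKO against WT without Iso and 2 with Iso. Over all genes the shares in this order were 6.70%, 18.4%, 10.1%, 13.8% and 7.91%. The mean of the 10 ventricular genes moved by 0.206 over the 12 arrays, from 6.01 to 6.22. Myl2 and Myl3 had ranges of 0.199 and 0.221, and the transcription factors Irx4 and Hey2 of 0.406 and 0.802. Irx4 read 3.30 to 3.71, near the array median, so its narrow range says little. Myl2 lies near the upper end of the table, 13.8, and read 13.67 on 5 arrays, so its narrow range was read at the top of the scale. The order of Myl2 matched that of Sln in 29 and that of Myl7 in 31 of 66 array pairs.

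The pathway partners of each member were read next. Around Sln, 12 genes of calcium pump regulation were on the array and 11 were tested, and 0 passed in any comparison. At an unadjusted p under 0.05 there were 4 with Iso in WT (6.70% of all genes) and 5 with Iso in DKO (18.4%). There were 0 for the difference of the Iso effects (10.1%). In DKO against WT there were 3 without Iso (13.8%) and 2 with Iso (7.91%). Phospholamban (Pln) read 9.47 to 10.1 and the pump Atp2a2 12.09 to 13.02 over the 12 arrays, so neither showed the spread of Sln. Pln differed by 0.37 with Iso in WT (SE 0.14, limma adjusted p = 0.657), and its order matched that of Sln in 35 of 66 pairs. Around the light chains, 12 of 14 other light chain and light chain kinase genes were tested and 0 passed in any comparison. Counts at an unadjusted p under 0.05, in the same order of comparisons, were 0, 1, 0, 2 and 2. Myl1, the skeletal counterpart of Myl4, had a range of 0.424. Among 12 other connexins on the array, 5 were tested and 0 passed, with 0 at an unadjusted p under 0.05. Gja1, the main ventricular connexin, read 8.41 to 9.34, and the endothelial Gja4 and the conduction-system Gjc1 had ranges of 0.485 and 0.475. Around Bmp10, 14 of 20 ligands, receptors, Smads and targets were tested and 0 passed. Counts at such a p, in the same order of comparisons, were 0, 3, 4, 3 and 3.

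Sources of Sln and of Gja5 outside atrial muscle were checked by their markers. Of 13 skeletal muscle genes 7 were tested and 0 passed. The mean of these 7 lay between 3.91 and 3.99 on the Iso-treated WT arrays, with no gap between array 3 and the others. Atp2a1, a calcium pump gene, was alone among the 7 in being lowest on array 3. It read 4.10, 3.79 and 3.36 on Iso-treated WT arrays 1, 2 and 3. Of 15 conduction system genes 8 were tested and 0 passed. Among them Tbx3 had a range of 0.398, while Hcn4 and Shox2 were dim. The mean of the 8 tested was taken relative to its own mean over 12 arrays. It was 0.0654, 0.0448 and -0.0109 on Iso-treated WT arrays 1, 2 and 3, so it was lowest on array 3. Relative to their mean over 12 arrays, the 13 endothelial markers averaged 0.225, 0.0541 and -0.103 on Iso-treated WT arrays 1, 2 and 3. They too were lowest on array 3. The macrophage list was at 0.202, 0.194 and -0.127 on the same arrays, also lowest on array 3. So were the smooth muscle list, at 0.045, -0.0997 and -0.163, and the myocyte list, at 0.0302, 0.138 and 0.014. The fibroblast list, at 0.211, -0.0412 and -0.00666, was lowest on array 2. The endothelial mean was highest, at 0.318, on untreated DKO array 3, the array that stood apart over all genes. Sln was at its lowest in that group there, and nothing is read from this 1 array. Endocardial markers lay between 4.22 and 4.36 and mesothelial markers between 4.12 and 4.26 in Iso-treated WT, above the 3.84 to 4.08 and 3.78 to 3.88 of untreated WT. Relative to its own mean over 12 arrays the endocardial list was at 0.203, 0.0808 and 0.0697 on Iso-treated WT arrays 1, 2 and 3, and the mesothelial list at 0.198, 0.342 and 0.312, so the latter was not lowest on array 3. At an unadjusted p under 0.05, 6.70%, 18.4%, 10.1%, 13.8% and 7.91% of all genes passed, in the order given for the ventricular genes. In that order endothelial counts were 2, 0, 2, 4 and 2 of 13, and endocardial 3, 0, 0, 0 and 0 of 5. Mesothelial counts were 1, 0, 2, 0 and 3 of 6, and macrophage 0, 4, 2, 1 and 2 of 8. Myocyte counts were 3, 3, 0, 0 and 1 of 10, and fibroblast 0, 2, 2, 1 and 1 of 9. Smooth muscle counts were 0, 1, 0, 0 and 0 of 9. Skeletal and conduction counts were 0 or 1. In all these lists limma called only Cd74, an antigen-presentation gene of the macrophage list, in any comparison. Cd74 fell by 0.94 in DKO against WT with Iso (limma adjusted p = 0.04), and this call was lost without any 1 of the 6 Iso-treated arrays (limma adjusted p 0.0627 to 0.25). It was also lost without untreated WT array 1 or 2, without untreated DKO array 1 and with no filter on dim genes (adjusted p 0.0519 to 0.0693). The 5 neuronal and Schwann genes were all dim. Whether the Sln and Myl7 signal came from atrial cells carried over or from ventricular myocytes was not tested, nor was the part of other cells in it.

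A likeness ranking asked which of the 13737 genes came nearest to the mean profile of Sln, Myl4 and Myl7 over the 12 arrays, each profile centred on its own mean. The measure was the root mean square difference between profiles in log2 units. A flat gene would stand at 0.974, and 33.0% of genes were nearer than that. Myl7 itself stood at 0.294, rank 1, Sln at 0.754 (rank 28) and Myl4 at 0.831 (rank 156), and these 3 are part of the profile they are ranked against. Gja5, which is not part of it, stood at 0.994 (rank 6200). Nearest among non-members of proper name was Slc7a8, a transporter of neutral amino acids, at 0.612. Slc7a8 read 5.66, 5.60 and 3.92 on the Iso-treated WT arrays and 3.34 to 4.70 elsewhere. Nmrk2, a nicotinamide riboside kinase of muscle, stood at 0.624. Nmrk2 read 9.01, 8.99 and 7.94 on the Iso-treated WT arrays and 7.58 to 8.19 elsewhere. In both genes Iso-treated WT arrays 1 and 2 were the highest of 12, and array 3 lay below all untreated WT arrays.

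The other named genes nearest to the profile were Snap91, Dnajc5g, Tmem100, Rtp4, Hddc3, Snord53, Slc22a4, Fcgr1, Ctla2a, Thbs1, Armc10, Tubd1 and Olfr556, at 0.637 to 0.724. They include a membrane protein of endothelium (Tmem100), a carnitine and ergothioneine transporter (Slc22a4), an Fc receptor of myeloid cells (Fcgr1) and the matrix protein thrombospondin 1 (Thbs1). None of the 15 was in the atrial list and 1, Fcgr1, was in any of the marker lists. The measure counts the size of differences, so a gene of narrow range stays near the flat value whatever its order. The 15 had ranges of 1.09 to 2.32 over the 12 arrays. Atrial genes of narrower range could hardly have entered, so nothing is read from their absence. The genes nearest to the sign-turned profile were Atp6v1g1, which encodes part of the vacuolar proton-pumping ATPase, at 0.684, then Lypd6, Snhg6, Cuedc1 and Bdh1 at 0.708 to 0.727. Atp6v1g1 read 7.85, 7.57 and 9.29 on the Iso-treated WT arrays and 10.2 to 10.8 on the other 9, so that all 3 arrays of this group were low, array 3 least so. Its difference with Iso in WT was -2.19, a description, since the ranking used these arrays. The ranking rests on few arrays, since 7 of the 15 names recurred without Iso-treated WT array 1 and 7 without array 2.

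**Figure D4:**
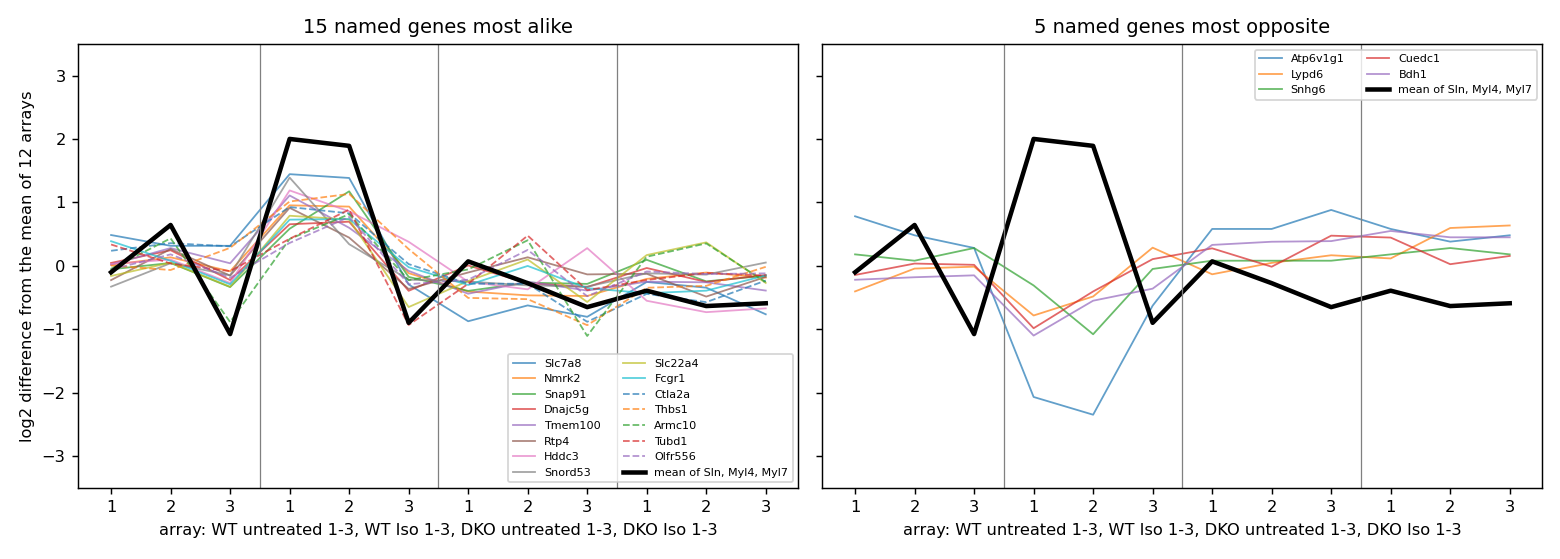
Log2 signal minus the gene's own mean (vertical axis) over the 12 arrays by group (horizontal axis) for the mean profile of Sln, Myl4 and Myl7 and the genes nearest to it and to its mirror image. The mean profile peaks at 2.00 and 1.89 on Iso-treated WT arrays 1 and 2 and is at -0.90 on array 3. The 15 nearest genes (left, the last 5 dashed) peak lower on arrays 1 and 2, and the 5 opposite genes (right) dip on them.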

How the data were processed

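Arrays were Affymetrix, hybridised with biotinylated cRNA from Trizol-extracted total RNA, per the labels' protocols. The authors summarised them with RMA, per the submitters' processing notes, and deposited log2 values from 2.25 to 13.8. For the array type, its annotation build and the RMA version, the sources used here give nothing. Of 25428 probe sets, 24705 carried 1 gene symbol in the platform annotation and 723 none. For the 1 symbol with several probe sets the brighter was used, leaving 24704 genes. The 5 members each have 1 probe set (Entrez genes 66402 for Sln, 17896 for Myl4, 17898 for Myl7, 14613 for Gja5 and 12154 for Bmp10).

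A gene was tested if it lay above its array's median on at least 3 of the 12 arrays, which kept 13737 genes and left 10967 dim ones untested. With limma 3.58.1 (R 4.3.3) the 4 group means were fitted over all 12 arrays with moderated variances (eBayes). Benjamini-Hochberg adjustment ran over the 13737 genes, with calls at an adjusted p of 0.05, and limma was checked on simulated data. Groups are free of overlap when all 3 arrays of one lie above all 3 of the other. Each mouse gave 1 untreated and 1 Iso-treated array, so mouse numbers pair arrays. The correlation between paired arrays, after each group's mean was taken off, was -0.0623, 0.0566 and 0.0109 in WT and 0.00733, 0.0864 and 0.130 in DKO, across genes, which are not independent replicates.

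Members and gene lists were chosen with earlier results of these data known. Named were the members, a set list of atrial, ventricular, calcium pump, light chain, connexin and conduction genes, any listed gene that passed, and the 15 genes nearest and 5 most opposite to the mean profile of Sln, Myl4 and Myl7, without predicted genes. Gm3417 was named after its value was seen. Alternatives were other filters, scalings and eBayes settings, array weights, the mouse as a block, only the arrays compared, and each array left out in turn. Raw array files were not used here.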

Additional observations from a re-analysis of the deposited data

Results flagged for a closer look

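In Myl4, Hddc3, Snhg6 and Bdh1 Iso went one way in every WT mouse and the other way in every DKO mouse. Over all 24704 genes this was so for 4.14%. The direction of Myl4, the atrial essential light chain, differed by -0.98 (DKO minus WT), with Iso effects of 0.595, 0.542 and 0.693 in the WT mice and -0.136, -0.123 and -0.857 in the DKO mice. The -0.857 is from DKO mouse 3, whose untreated array stood apart over all genes. Without that array the Myl4 difference was -0.72. None of these 4 differences was tested, since the values of the Iso-treated WT arrays led to the choice of Myl4 and to the naming of the other 3 genes. Hddc3, a metal-dependent hydrolase near the mean profile of Sln, Myl4 and Myl7, differed by -1.39. Its Iso effects were 1.16, 0.762 and 0.645 in WT and -0.296, -0.366 and -0.949 in DKO, where the -0.949 is again from mouse 3. Snhg6, a small nucleolar RNA host gene near the sign-turned profile, differed by 0.80. Its effects were -0.459, -1.16 and -0.357 in WT and 0.0654, 0.203 and 0.148 in DKO. Bdh1, a ketone body dehydrogenase also near the sign-turned profile, differed by 0.61. Its effects were -0.884, -0.369 and -0.207 in WT and 0.223, 0.0762 and 0.0605 in DKO.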

How the results depend on the processing

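The 2 tested comparisons of the members gave 0 calls under every alternative run, with limma adjusted p of 0.265 to 0.994 for Sln and 0.192 to 0.812 for Myl4 with Iso in DKO. For DKO against WT without Iso the ranges were 0.677 to 0.985 and 0.194 to 0.754. With the mouse as a random replicate block the SE of Sln with Iso in WT was 1.06, and as a fixed term 0.60, where the adjusted p with Iso in DKO was 0.62 for Sln and 0.267 for Myl4, so the block changed no call. The sign of the untreated DKO minus WT difference turned for Sln with array weights (0.135), without WT array 2 (0.097) and without DKO array 3 (0.114), and for Myl7 without WT array 2 (0.269), within ranges of -1.116 to 0.114 and -0.859 to 0.269 over arrays left out. Over arrays left out, members free of overlap numbered 2 to 4 for Iso in WT, 1 to 3 for the difference of the Iso effects and 2 to 4 for DKO against WT with Iso, 4 being reached without Iso-treated WT array 3. Atrial companions called in DKO against WT without Iso and with Iso numbered 2 and 2 with array weights, where Angpt1 joined Nppa (-0.65 and -0.83, adjusted p 0.0327 and 0.0283), 0 with only the untreated arrays compared, and 0 to 1 with an array left out. Of the 15 genes nearest to the profile, 4 recurred with the within-group profile, 9 with Sln alone and 7 to 15 without 1 array. Array weights raised calls over all genes to 1109 with Iso in DKO, from 7. Signal limits Bmp10, which is dim, and Gja5, near the median.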
